A study of Mus musculus with 16 samples.

Results

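The imprinted gene network of haematopoietic stem cells (HSCs) was followed here through 10 genes: H19, Igf2, Igf2r, Meg3, Dlk1, Ndn, Peg3, Grb10, Mest and Plagl1. They were chosen by symbol, as imprinted genes linked to growth control and stem cells, with earlier results of these data known. All 10 were found by their Ensembl identifiers among the 46078 genes of the count table. HSCs were lin- Sca1+ cKit+ CD48- CD150+ cells of C57/Bl6 mice, sorted in pools of 30 from the bone fraction (called endosteal) or the marrow fraction (called central) of tibia, femur and humerus. The mice were either wild-type (WT) or Gfra2-/-, which lack the receptor GFRα2 in the whole animal, so the deletion was not confined to blood cells or nerves. None of the mice had been treated, and their ages were not given in the sources used here.

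Each pool of cells gave 1 Smart-seq2 library, in which polyadenylated RNA is copied and amplified without molecular identifiers. The 15 libraries used were 4 endosteal WT, 4 central WT, 4 endosteal Gfra2-/- and 3 central Gfra2-/-, lettered within each group in the order of the table. The study calls the pools of a group biological replicates, and nothing in the sources used here says whether each came from a different mouse, so p-values measure the spread between pools. Between 826487 and 18550008 reads were counted on genes per library, and every central WT library (3367289 reads at most) was shallower than every other library. All 9 HSC markers had counts in all 15 libraries. Gfra2 had 47 and 9 counts in endosteal Gfra2-/- libraries B and D and at most 4 in any WT library, so the text speaks of libraries labelled Gfra2-/-. Fewer cells that express a gene and less RNA per cell cannot be told apart in such pools.

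Imprinted genes are read mainly from the chromosome of 1 parent, according to DNA methylation marks set in the germ cells. Many of those read from the paternal copy, such as Igf2, Dlk1, Peg3, Mest and Plagl1, promote fetal growth, whereas maternal genes such as H19, Meg3, Igf2r and Grb10 restrain it. In HSCs, imprinted loci are known for the link of the H19-Igf2 and Dlk1-Meg3 regions with the quiescence of adult stem cells. Libraries of total cDNA do not show which parental copy was read.

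H19 (ENSMUSG00000000031), a long noncoding RNA, lies on chromosome 7 of GRCm38 from 142575529 to 142578143 on the minus strand, and its exons hold the whole hairpin of miR-675. This microRNA is shown because H19 was the member that passed the test across all genes, and because H19 is its precursor. The hairpin lies at chr7:142577064-142577147 on the minus strand of GRCm38.p6, with the sequences from RefSeq. The capitals mark both mature arms in the hairpin and the seed, bases 2 to 8, in each mature microRNA.
mir-675 hairpin: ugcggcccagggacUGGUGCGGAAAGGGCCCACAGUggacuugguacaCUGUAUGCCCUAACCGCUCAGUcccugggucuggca
miR-675-5p: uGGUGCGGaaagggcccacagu
miR-675-3p: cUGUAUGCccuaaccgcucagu
The seeds of the arms differ. The microRNA itself was not measured, since these libraries were made from polyadenylated RNA. The Mir675 gene had no counts in any library, but it lies wholly within H19 exons on the same strand. Reads shared by 2 genes were left out by the counting, so this absence of counts says nothing about the microRNA.

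Meg3 (ENSMUSG00000021268), another noncoding RNA of the maternal copy, lies on chromosome 12 from 109541001 to 109571726 on the plus strand, downstream of Dlk1 (ENSMUSG00000040856, 109452823 to 109463336, plus strand). Its promoter is shown because it was the member whose levels separated the compartments in both genotypes. The window covers 250 bases before and 50 after the RefSeq start, on the plus strand at chr12:109540746-109541045 of GRCm38.p6. The capitals mark TGCCGC, the core motif of the imprint-protecting factor ZFP57, found here on the opposite strand as GCGGCA.
Meg3 promoter: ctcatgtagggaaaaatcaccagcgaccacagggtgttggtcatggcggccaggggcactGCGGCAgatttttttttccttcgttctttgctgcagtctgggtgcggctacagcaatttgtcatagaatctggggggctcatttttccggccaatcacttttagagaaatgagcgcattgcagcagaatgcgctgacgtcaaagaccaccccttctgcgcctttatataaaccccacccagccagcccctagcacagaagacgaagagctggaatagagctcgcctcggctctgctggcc
This motif was found on either strand in 6 of the 16 windows that RefSeq starts gave for 9 members (37.5%), and in 11.6% of all 32851 promoter windows of the same length. The 6 windows belonged to Igf2, Meg3, Grb10, Plagl1 and Mest, and the 2 of Mest overlap and hold the same matches. The motif holds a CpG, and 14 of the 16 member windows were at or above the median CpG count over all windows. The shares of 37.5% and 11.6% are therefore not matched for CpG content. Another RefSeq start of Meg3 gave a window without the motif. The match describes the letters of a window and does not show binding.

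The members fell into 4 that were detected everywhere and 6 that were not. Levels between genes were compared per length, as reads per kilobase of annotated exons and per 1000000 scaled reads (RPKM). Exons were merged over all annotated transcripts, to 3694 bases for Ndn and 18089 for Meg3, and may be longer than the transcript present. The order of genes below depends on these lengths, and other lengths were not tested. Ndn, which encodes necdin, a growth-restraining protein read from the paternal copy, had a median level of 26.9 RPKM over the 15 libraries (2.54 to 61.4). Grb10, an adaptor that dampens insulin and IGF receptor signals, had 19.3 RPKM (8.36 to 33.5). Igf2r, the receptor that clears IGF2 into lysosomes, had 4.59 RPKM (0.144 to 10.1) and Meg3 had 1.36 RPKM (0.00558 to 6.0). These 4 genes had counts in all 15 libraries.

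The other members were absent from several libraries and low in most. Dlk1, a transmembrane Notch-like ligand, had counts in 12 libraries and a median of 0.167 RPKM. Mest, a hydrolase-like protein of the paternal copy, and Plagl1, a zinc finger factor at the head of the network, had counts in 8 libraries each, with medians of 0.0666 and 0.00865 RPKM. H19, Igf2 (insulin-like growth factor 2) and Peg3 (a zinc finger protein of the paternal copy) had counts in 7 libraries each and a median of 0 RPKM. The mean of H19 was nevertheless 3.59 RPKM, since it reached 23.0 RPKM in 1 central WT library.

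Neighbours in this order were compared within libraries by 9 exact sign-flip permutation tests on log2(RPKM + 0.01), all two-sided. The order came from the medians of these same libraries, so the tests are no independent check of it. They also pool the 4 groups, and their p-values hold for this mix of libraries only. Ndn and Grb10 did not differ beyond their spread (mean difference 0.20 ± 1.27 SD, n = 15, exact p = 0.606), and Ndn was the higher in 10 of 15 libraries. Grb10 exceeded Igf2r in 15 of 15 libraries (2.52 ± 2.06 SD, exact p = 6.1e-05, the smallest this test can give). Igf2r exceeded Meg3 in 12 (1.81 ± 3.01 SD, exact p = 0.0341), and Meg3 exceeded Dlk1 in 14 (2.93 ± 2.46 SD, exact p = 0.000305). No neighbours from Dlk1 down to Peg3 were separated, with exact p from 0.171 to 0.438 in the 5 tests.

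**Figure D1:**
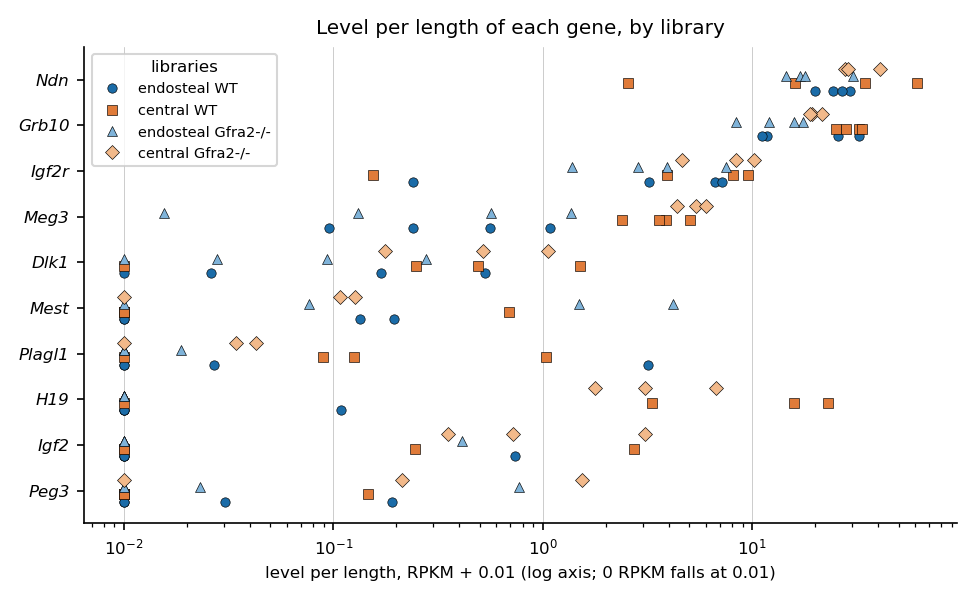
Level per length of each gene (RPKM + 0.01, log axis) in each of the 15 libraries, with 1 symbol per group and genes in the order of their median. Ndn and Grb10 sit at the right in nearly all libraries, and H19 is split between 0 RPKM and 1.77 RPKM or more, apart from 1 endosteal WT library at 0.0991 RPKM.

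The first question was whether the network differs between HSCs of endosteal and central marrow. H19 was found in central HSCs and was at or near 0 in endosteal HSCs of both genotypes. Meg3 was also lower in endosteal HSCs, by 2.95 on the log2 scale in WT and 3.37 in libraries labelled Gfra2-/-, with no overlap between the libraries of the 2 compartments, but short of the threshold across all genes within each genotype. Apart from Meg3, no member, maternally or paternally read, separated the compartments without overlap in both genotypes. Ndn and Igf2r overlapped in every comparison, and most of the paternally read members were at or near 0 in many libraries.

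In WT, H19 had 1, 0, 0 and 0 counts in the endosteal pools A to D and 9, 182, 0 and 116 in the central pools A to D. It had 0 counts in all 4 endosteal libraries labelled Gfra2-/- and 252, 46 and 59 counts in central libraries A to C of that genotype. Thus 6 of 7 central libraries exceeded all 8 endosteal libraries, and the groups overlapped in WT only through central library C. That library was the shallowest of all, and its count of 0 allows up to 3.63 counts per 1000000, whereas the 7 endosteal libraries at 0 allow between 0.162 and 0.352.

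In counts per 1000000 reads scaled by TMM, the trimmed mean of M-values (CPM), the H19 level was 0.0609 ± 0.122 (SD, n = 4) in endosteal WT, 26.0 ± 26.5 (n = 4) in central WT, 0 in endosteal libraries labelled Gfra2-/- (n = 4) and 9.48 ± 6.31 (n = 3) in central ones. Over the summed reads of each group, H19 was 1487-fold higher in central than in endosteal WT HSCs, from 307 counts against 1, with a 95% counting interval of 265 to 58913 (exact). That ratio rests on a single read in endosteal WT A: without this library H19 was at least 442-fold higher, and without endosteal WT B it was 978-fold (174 to 38736). In libraries labelled Gfra2-/- it was at least 195-fold higher in central HSCs, with 3 counts over the endosteal group as the floor. Central library A held 252 of the 357 counts, and without it the bound was 105-fold, while without endosteal library B it was 127-fold. Such intervals and floors cover counting error only, as PCR copies are not independent molecules.

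The levels were compared on log2(CPM + 1) by exact two-sided permutation tests, of which 50 were made over the members and none was adjusted. For H19 the mean difference between endosteal and central was -3.51 in WT (exact permutation p = 0.143) and -3.22 in libraries labelled Gfra2-/- (p = 0.0286, the smallest possible with 4 against 3). When labels were permuted within each genotype, a test added after seeing the data, the mean difference was -3.36 (exact permutation p = 0.00204). Libraries were also split at a spike-in share of 0.5% of reads, with 1 library of each group under it. The shares were 0.192% to 0.421% below this cut and 0.764% to 7.10% above it. These sets are called spike-in batches here, though the sources used name no batch. The mean difference over both genotypes was -3.09 in the high-share libraries and -4.21 in the others.

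Meg3 was measured in WT at 9.99, 19.5, 1.54 and 4.17 CPM in the endosteal pools A to D, and at 91.4, 70.0, 42.9 and 64.4 CPM in central ones. In libraries labelled Gfra2-/- it was at 10.01, 0.101, 24.5 and 2.19 CPM in endosteal A to D and at 79.3, 97.7 and 109 CPM in central A to C. The highest of the 8 endosteal libraries was therefore below the lowest of the 7 central libraries. Within endosteal groups Meg3 ranged widely, whereas central libraries differed by less than a factor of 3 (lowest 42.9, highest 109 CPM).

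The difference of Meg3 between endosteal and central, on log2(CPM + 1), was -3.16 in WT (exact permutation p = 0.0286, the smallest possible) and -4.09 in libraries labelled Gfra2-/- (exact permutation p = 0.0571). Over both genotypes it was -3.62 (exact permutation p = 0.000816). It was -3.35 in libraries of a high spike-in share and -4.38 in those of a low one. Of 15416 genes tested over all libraries, 5 (0.0324%) had every endosteal library below every central one, and Meg3 was the only member among them.

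**Figure D2:**
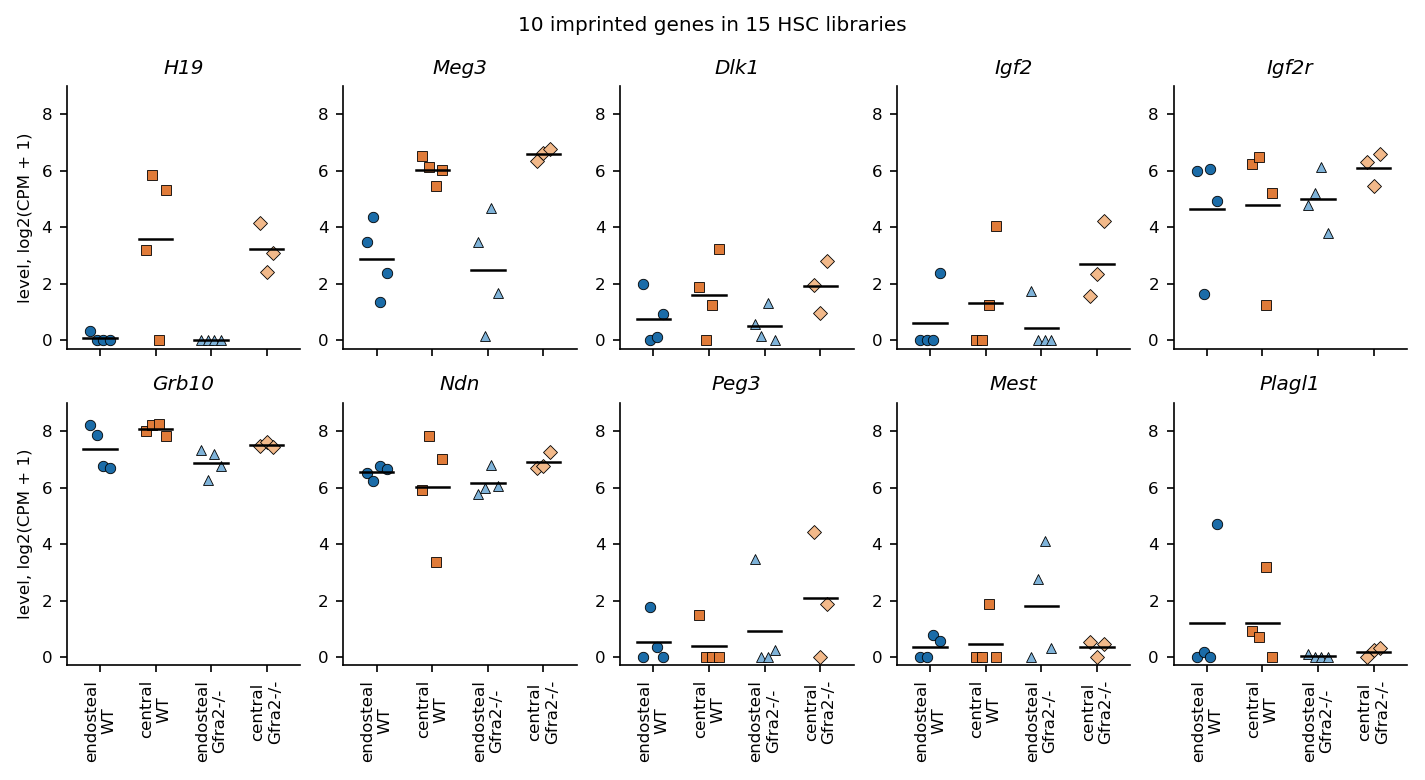
Level of each of the 10 genes, log2(CPM + 1), in every library (points) with the group mean (bar); 4 libraries per group, 3 in central Gfra2-/-. H19 is at or near 0 in all 8 endosteal libraries, and all 7 central libraries of Meg3 (42.9 to 109 CPM) lie above all 8 endosteal ones (0.101 to 24.5 CPM).

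Across all genes the separate comparisons passed few or no genes. With edgeR's quasi-likelihood test and a 10% false discovery rate (FDR, Benjamini-Hochberg), 0 of 11181 genes passed between endosteal and central WT HSCs (0% called), hence 0 of the 4 members that passed the filter on low counts. At an unadjusted p under 0.05 there was 1 of these 4, Meg3, which was lower, beside 7.89% of all genes (882) in either direction and 3.46% lower. Its log2 fold change was -2.95 ± 0.88 (SE) with an adjusted p of 0.455. DESeq2 called 607 of 20309 genes and 2 of 8 members, Meg3 (adjusted p = 0.00656) and H19 (adjusted p = 4.56e-05), whereas edgeR's filter had removed H19 in WT. H19 entered the DESeq2 test through its central counts, with 1 count in endosteal WT.

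In libraries labelled Gfra2-/-, 0 of 13860 genes passed edgeR between the compartments (0% called), and 0 of the 8 members tested. At an unadjusted p under 0.05 there were 2 members, both lower in endosteal HSCs, namely H19 (edgeR, adjusted p = 0.805) and Meg3 (adjusted p = 0.999), beside 4.79% of all genes (664) in either direction and 2.05% lower. H19 passed the filter only through the central group, in which it was high. Igf2 and Dlk1 also reached the filter mainly through that group, so the signs of the 8 tested members are not counted here. The 4 members tested in WT had counts in every library, and all 4 fold changes were negative, with a median of -0.46 on the log2 scale against 0.03 over all genes tested. Scaling by spike-in RNAs moved the median of all genes to 1.58 in WT and -0.46 in libraries labelled Gfra2-/-, and then 3 of the 4 WT members were positive and Meg3 alone stayed negative (-2.08). DESeq2 called 395 of 21359 genes and 1 of 10 members, H19 (adjusted p = 3.87e-06), which had 0 counts in the endosteal group.

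A fit over all 15 libraries asked whether a gene differed anywhere among the 4 groups. It called 91 of 15416 genes (0.59%), and 1 of 9 members, H19 (edgeR, adjusted p = 0.0507), which passed the filter only through central libraries. At an unadjusted p under 0.05 there were 3 members, H19, Meg3 and Grb10 (edgeR, adjusted p = 0.217 and 0.381 for the latter pair), beside 12.7% of all genes. The call of H19 rested on several libraries: without endosteal WT D, central WT A, B or D, or endosteal Gfra2-/- D, 0 members were called.

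A test of compartment with genotype as a term, chosen after seeing the data, called 4 of 15416 genes (0.0259%), all lower in endosteal HSCs. H19 was 1 of the 4 (edgeR, adjusted p = 0.0176), and it passed the filter only through central libraries. Meg3 fell short of the threshold (log2 fold change -3.14 ± 0.74 SE, edgeR adjusted p = 0.202). Without endosteal Gfra2-/- B, whose Gfra2 counts go against its label, 0 members were called and H19 had an adjusted p of 0.131. Without the 4 libraries of a low spike-in share, or without the 3 libraries highest in B cell, neutrophil or T cell markers, 0 members were called as well, with an adjusted p for H19 of 0.437 and 0.205, and without both endosteal libraries whose Gfra2 counts go against the label it was 0.302.

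Depth and markers of other cells also varied with the compartments. The central WT libraries were the shallowest, while the central libraries labelled Gfra2-/- (7649803 to 14716308 reads) lay within the range of the endosteal ones (4416648 to 18550008 reads). The summed level of 5 endothelial markers was 57.6 to 91.3 CPM in endosteal WT, 80.6 to 305 in central WT, 11.3 to 97.3 in endosteal libraries labelled Gfra2-/- and 37.6 to 262 in central ones, and Cdh5, which defines endothelial cells, was at 0 in all 15 libraries. Kdr, a receptor for VEGF in the same list, had 0, 2, 18 and 77 counts in endosteal WT and 141, 12, 5 and 31 in central WT. It had 0 counts in all 4 endosteal libraries labelled Gfra2-/- and 53, 676 and 259 in central ones. In WT its levels overlapped, with up to 6.3 CPM in endosteal libraries and 3.73 CPM or more in central ones. In libraries labelled Gfra2-/- it passed the filter only through the central group. Kdr was lower in endosteal HSCs at an unadjusted p under 0.05 in each genotype and over both (edgeR, adjusted p = 0.584, 0.805 and 0.208). Emcn was lower at that level in WT (log2 fold change -1.21 ± 0.50 SE, edgeR adjusted p = 0.59). Emcn had counts in all 15 libraries and made up much of the endothelial sum, at 57.5 to 89.6 CPM in endosteal WT and 70.1 to 301 in central WT. In libraries labelled Gfra2-/- Emcn was at 11.3 to 93.8 CPM in endosteal and 34.1 to 226 in central ones. Plvap and Stab2 of the same list went the other way in WT, with 76 and 20 summed counts in endosteal and 0 in central libraries. In libraries labelled Gfra2-/- they had 50 and 2 summed counts in endosteal and 16 and 2 in central ones. Of the 11 stromal and bone cell markers, Col3a1, Adipoq and Dcn were at 0 everywhere, and the highest Cxcl12 count was 9. Pdgfrb had at most 19 counts in endosteal libraries labelled Gfra2-/- and 279, 29 and 200 in central ones (log2 fold change -5.18 ± 1.65 SE, edgeR adjusted p = 0.896), whereas Col1a1 had 274, 19, 67 and 3 counts in these endosteal libraries and 0 in all 7 central libraries (edgeR, adjusted p = 0.896). Pdgfrb passed the filter there mainly through the central libraries, and Col1a1 only through the endosteal ones. The summed stromal level was 2.37 to 53.8 CPM in endosteal WT, 3.62 to 300 in central WT, 4.91 to 37.3 in endosteal libraries labelled Gfra2-/- and 3.03 to 37.6 in central ones. Neutrophil markers summed to 2554 CPM in central WT D, B cell markers to 1205 CPM in endosteal Gfra2-/- D and T cell markers to 40.8 CPM in central Gfra2-/- B, and the results without those 3 libraries are given above. The part of endothelial and stromal cells in the results was not tested.

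**Figure D3:**
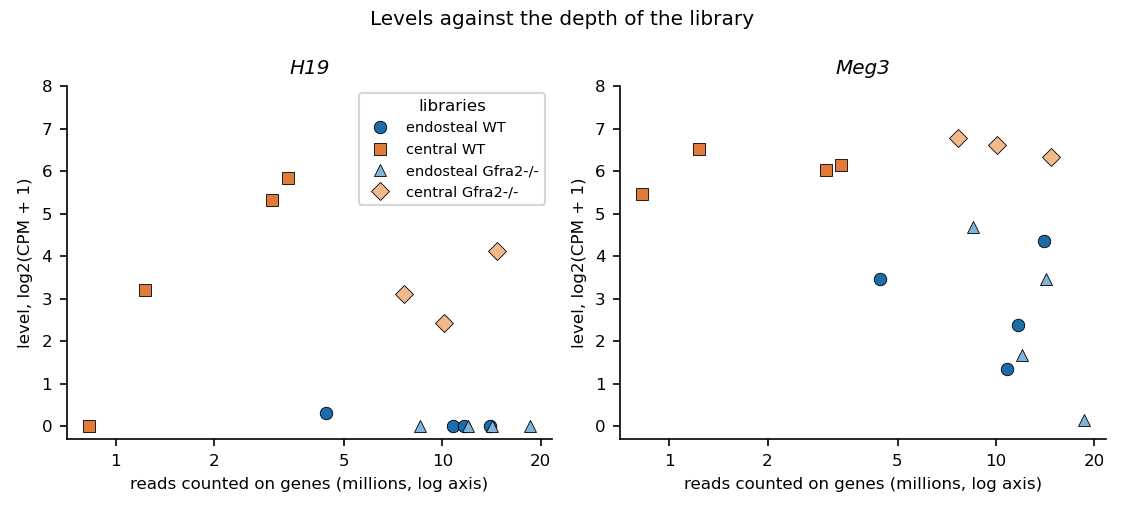
Level of H19 and Meg3, log2(CPM + 1), against the reads counted on genes in each library (log axis), with 1 symbol per group. The 3 central libraries labelled Gfra2-/- (7649803 to 14716308 reads) lie among the endosteal libraries in depth and above them in both genes.

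Dlk1 and Igf2, the paternally read genes that share the loci of Meg3 and H19, were low throughout. Dlk1 had 12, 0, 1 and 11 counts in endosteal WT A to D, 3, 0, 1 and 25 in central WT A to D, 7, 2, 13 and 0 in endosteal libraries labelled Gfra2-/- and 44, 10 and 46 in central ones. All groups overlapped within each genotype. Over both genotypes the difference between endosteal and central was -1.11 on log2(CPM + 1) (exact permutation p = 0.0457), while the fit across all genes gave a log2 fold change of -2.14 ± 1.28 (SE, edgeR adjusted p = 0.69). The difference was -0.56 in libraries of a high spike-in share and -2.55 in those of a low one.

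Igf2 (chromosome 7, 142650766 to 142666816, minus strand) had 0, 0, 0 and 51 counts in endosteal WT A to D and 0, 0, 1 and 46 in central WT A to D. It had 34, 0, 0 and 0 counts in endosteal libraries labelled Gfra2-/- and 30, 43 and 137 in central ones. It was thus found over 3 counts in all 3 central libraries labelled Gfra2-/- and in 1 library of each other group. Over both genotypes the difference between endosteal and central was -1.5 on log2(CPM + 1) (exact permutation p = 0.0612) and the log2 fold change -2.83 ± 1.71 (SE, edgeR adjusted p = 0.693). In 3 of the 4 libraries of a low spike-in share Igf2 exceeded 3 counts, against 3 of the 11 others, and the difference was -2.95 in the former and -0.89 in the latter.

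Igf2r (chromosome 17, 12682406 to 12769664, minus strand) was found in each library without an order of groups. It was at 61.9, 2.13, 66.5 and 29.8 CPM in endosteal WT A to D and at 75.1, 89.2, 1.34 and 36.4 CPM in central WT A to D. In libraries labelled Gfra2-/- it was at 26.4, 36.3, 69.8 and 12.8 CPM in endosteal A to D and at 77.9, 42.7 and 94.4 CPM in central A to C. The pools endosteal WT B and central WT C held almost none of it. The log2 fold change between endosteal and central was -0.35 ± 1.05 (SE) in WT and -0.98 ± 0.61 in libraries labelled Gfra2-/- (edgeR, adjusted p = 0.951 and 0.999), so a difference of 1 log2 unit lay within 2 SE in both.

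Grb10 (chromosome 11, 11930508 to 12038683, minus strand) was the steadiest member. It was at 295, 234, 106 and 101 CPM in endosteal WT A to D and at 253, 294, 304 and 227 CPM in central WT A to D. In libraries labelled Gfra2-/- it was at 158, 76.0, 144 and 109 CPM in endosteal A to D and at 176, 196 and 172 CPM in central A to C. Its central libraries lay within a narrow range in each genotype, those of WT all above those labelled Gfra2-/-. Its pooled within-group SD of 0.49 on log2(CPM + 1) was larger than that of 8.21% of tested genes (median over all tested genes 1.08).

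Between endosteal and central HSCs, Grb10 had a log2 fold change of -0.57 ± 0.40 (SE) in WT and -0.57 ± 0.31 in libraries labelled Gfra2-/- (edgeR, adjusted p = 0.758 and 0.999), and with spike-in scaling the WT value turned to 0.52. The endosteal libraries labelled Gfra2-/- did not overlap the central ones, which held for 3 of the 8 tested members, H19 (tested only through its central counts), Meg3 and Grb10, all lower in endosteal HSCs, and for 3.67% of all genes in that direction. In WT the same held for Meg3 only, 1 of 4 tested members beside 2.09% of all genes. Over both genotypes the log2 fold change of Grb10 was -0.56 ± 0.26 (SE, edgeR adjusted p = 0.555), and at an unadjusted p under 0.05 there were 3 of 9 members (H19, Meg3 and Grb10, all lower) beside 8.71% of all genes in either direction and 3.77% lower.

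Ndn (chromosome 7, 62346569 to 62350262, plus strand) had 89.7, 73.9, 108 and 99.3 CPM in endosteal WT A to D and 58.8, 227, 9.39 and 128 CPM in central WT A to D. In libraries labelled Gfra2-/- it had 53.2, 62.6, 112 and 65.7 CPM in endosteal A to D and 102, 106 and 151 CPM in central A to C. The central WT libraries spread the most, over a range that holds the values of all other groups. The log2 fold change between endosteal and central was -0.21 ± 0.69 (SE) in WT and -0.71 ± 0.37 in libraries labelled Gfra2-/- (edgeR, adjusted p = 0.954 and 0.999). In WT its sign depended on the scale, since the mean difference on log2(CPM + 1) was 0.51 (exact permutation p = 0.771), and with spike-in scaling the fold change was 1.06.

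Peg3, Mest and Plagl1 appeared in single pools rather than in groups. Peg3 had 0, 36, 3 and 0 counts in endosteal WT, 2, 0, 0 and 0 in central WT, 150, 0, 0 and 2 in endosteal libraries labelled Gfra2-/- and 311, 0 and 21 in central ones. Mest had 0, 0, 8 and 6 counts in endosteal WT, 0, 0, 2 and 0 in central WT, 0, 115, 142 and 3 in endosteal libraries labelled Gfra2-/- and 7, 0 and 3 in central ones. Plagl1 had 0, 2, 0 and 304 counts in endosteal WT, 1, 2, 6 and 0 in central WT, 1, 0, 0 and 0 in endosteal libraries labelled Gfra2-/- and 0, 2 and 2 in central ones. At least 10 counts were reached in 4 libraries for Peg3, in 2 for Mest and in 1 for Plagl1. Where they were at 0, the depth allowed up to 0.162 to 3.63 counts per 1000000 for Peg3, 0.211 to 2.44 for Mest and 0.162 to 0.994 for Plagl1. None of the exact permutation tests of these 3 genes between groups had a p under 0.05, with the lowest 0.143.

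The second question was whether the loss of Gfra2 changed the network. Between the genotypes edgeR called 6 of 11772 genes in central HSCs (0.051%) and 0 of 12970 in endosteal HSCs (0%), and 0 of 7 and 0 of 4 tested members. At an unadjusted p under 0.05 there were 0 members in either, beside 8.73% (1028 genes) and 6.69% (868 genes) of all genes. DESeq2 called 730 of 20268 and 531 of 21320 genes and 0 members.

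In central HSCs, Grb10 was lower in libraries labelled Gfra2-/- than in WT, with no overlap (172 to 196 against 227 to 304 CPM). Its difference was -0.56 on log2(CPM + 1) (exact permutation p = 0.0286, the smallest possible) and its log2 fold change -0.60 ± 0.33 (SE, edgeR adjusted p = 0.647), and it was the only one of 7 tested members without overlap, beside 4.44% of all genes in that direction. Within spike-in batches the difference was -0.61 in high-share and -0.40 in low-share libraries. With spike-in scaling, which moved the median of all genes to 1.75 in this comparison, the fold change of Grb10 turned to 1.19. Meg3 (0.48 ± 0.52 SE), Igf2r (0.47 ± 0.92) and Ndn (0.15 ± 0.76) gave log2 fold changes within 1 SE of 0, and H19, at 8.15 to 56.6 CPM in the 3 WT libraries in which it was found, overlapped the 4.35 to 16.5 CPM of libraries labelled Gfra2-/- (exact permutation p = 0.886).

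In endosteal HSCs, log2 fold changes between the genotypes were 0.07 ± 1.37 (SE) for Meg3, -0.59 ± 0.41 for Grb10, -0.33 ± 0.36 for Ndn and -0.13 ± 0.89 for Igf2r (edgeR). None of these 4 genes separated the genotypes without overlap, beside 6.24% of all genes in either direction, and the wide error of Meg3 leaves changes of over 2 log2 units within 2 SE. H19 was at or near 0 in both genotypes, with 1 count in all. Mest reached 115 and 142 counts in endosteal Gfra2-/- B and C and at most 8 in WT (exact permutation p = 0.343).

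Whether the compartment difference itself changed with genotype was tested as an interaction over 15 libraries. It called 0 of 15416 genes (0%) and 0 of 9 members with edgeR, with 1074 genes (6.97%) and 0 members at an unadjusted p under 0.05. DESeq2 called 240 of 23304 genes and 0 members. For Meg3 the interaction was -0.44 ± 1.44 (SE) and for Grb10 -0.02 ± 0.53, on the log2 scale. A change of the Meg3 difference by over 2 log2 units thus lay within 2 SE.

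**Figure D4:**
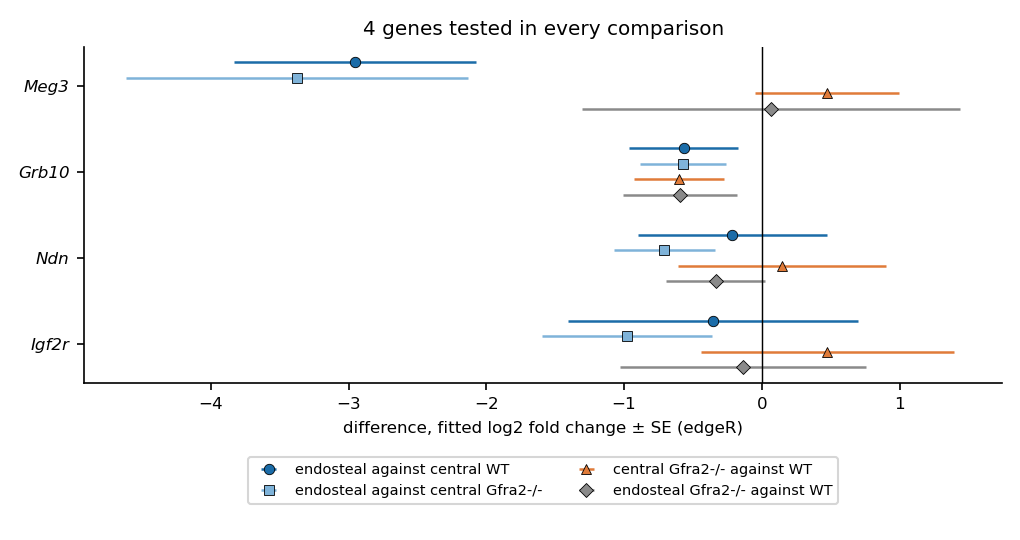
Fitted log2 fold change ± SE (edgeR) of the 4 genes that passed the filter in every comparison; the first-named group is in the numerator. Only Meg3 between the compartments (-2.95 and -3.37) lies more than 2 SE from 0.

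How the members varied within groups is a further property of the network. The pooled within-group SD on log2(CPM + 1) was 1.77 for Igf2r, larger than for 87.9% of the 15416 tested genes. It was 1.44 for H19, 1.42 for Peg3, 1.41 for Plagl1, 1.38 for Igf2 and 1.27 for Meg3, each above the median of 1.08 over all tested genes. Ndn (1.06), Dlk1 (0.99) and Grb10 (0.49) were below it, and Mest (1.17) was above it. Depth and pools of 30 cells bear on such a spread, and their part was not tested.

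The genes most like each member in pattern over the 15 libraries were found for the 4 members with at least 10 counts in 8 libraries or more. Igf2r was most like Parp4 (Pearson r = 0.88) and Vps33b (0.86). Meg3 was most like Atp2b4 (0.80) and Rab5c (0.79), Ndn like Psmc3 (0.89) and Gm13736 (0.87), and Grb10 like Rpl22 (0.92) and Gm27206 (0.89). These are the highest of many correlations over points that share depth and batch, and are given as a description.

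Other imprinted genes were taken from a list of 42, of which 20 to 28 passed the filter, depending on the comparison. With edgeR, 0 were called in any comparison. At an unadjusted p under 0.05, 2 of 20 were lower in endosteal than central WT HSCs and 0 higher, beside 7.89% of all genes in either direction and 3.46% lower, the 2 being Peg13 (log2 fold change -1.92, edgeR adjusted p = 0.481) and Trappc9 (-1.56, adjusted p = 0.594), which share a locus. In libraries labelled Gfra2-/- it was 0 of 26, beside 4.79% of all genes, with the smallest p for Rian (-3.76, edgeR adjusted p = 0.999) and Peg12. Median log2 fold changes were -0.16 and -0.18, against 0.03 over all genes in both.

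Rian, a noncoding RNA read downstream of Meg3 from the same locus, had 115, 152 and 102 counts in the 3 central libraries labelled Gfra2-/- and at most 26 in any other. These libraries were at 7.54 to 14.4 CPM, and the highest level was in the shallower central WT group, at 22.8 CPM from 17 counts. In the fit over both genotypes Rian (log2 fold change -4.58 ± 1.49 SE) and Zdbf2 were lower in endosteal HSCs, with edgeR adjusted p of 0.354 and 0.208, as were Peg13 and Trappc9, so that in this test, chosen after seeing the data, 4 of 28 listed genes were lower and 0 higher at an unadjusted p under 0.05, beside 8.71% of all genes in either direction and 3.77% lower. Zdbf2 passed the filter only through central libraries and Rian mainly through them. The count of 4 is therefore not read against those shares. Zdbf2, a paternally read gene, had 0 counts in all 8 endosteal libraries, and 22 and 3 counts in central WT B and D and 239 and 34 in central Gfra2-/- A and C. Rian and Zdbf2 thus had their highest counts in central libraries, as H19 and Meg3 did.

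Between the genotypes, Gatm, an enzyme of creatine synthesis, was lower in libraries labelled Gfra2-/- in central HSCs (log2 fold change -1.59, edgeR adjusted p = 0.47) and in endosteal HSCs (-0.99, adjusted p = 0.737) at an unadjusted p under 0.05. Airn, the noncoding RNA antisense to Igf2r, was higher in central HSCs at that level (3.69, edgeR adjusted p = 0.483), and Peg12 had the second smallest p in endosteal HSCs. In central HSCs Airn passed the filter mainly through libraries labelled Gfra2-/-, with at most 8 counts in WT. In the interaction the smallest p were those of Ascl2 and Mcts2 (edgeR, adjusted p = 0.673 and 0.696), and over the 4 groups those of Zdbf2 and Gatm (adjusted p = 0.213 and 0.268). Cdkn1c, the cell cycle inhibitor of quiescent HSCs, gave -2.04 ± 1.06 (SE, edgeR adjusted p = 0.641) between endosteal and central WT HSCs and -0.04 ± 0.81 in libraries labelled Gfra2-/-. Sgce (1.56 ± 1.05) and Gnas (0.59 ± 1.05) did not pass in WT either, and Dcn was at 0 in every library.

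Of 8 genes that maintain imprints, 6 or 7 passed the filter and 0 were called by edgeR. Zfp57, the factor whose core motif was searched in the promoters, had 4, 616, 111 and 75 counts in endosteal WT A to D and 0, 1, 0 and 0 in central WT, and 281, 867, 167 and 111 counts in endosteal libraries labelled Gfra2-/- against 1, 4 and 101 in central ones. Every endosteal library thus had a higher CPM than all central ones but Gfra2-/- C, with a log2 fold change over both genotypes of 4.11 ± 1.33 (SE, edgeR adjusted p = 0.354), and it had the smallest p of the list over the 4 groups (adjusted p = 0.252) and in the interaction (adjusted p = 0.718). Zfp57 passed the filter mainly through endosteal libraries. Dnmt1, the maintenance methyltransferase, was lower in endosteal libraries labelled Gfra2-/- than in WT (-0.52 ± 0.22 SE, edgeR adjusted p = 0.737), with -0.98 ± 0.47 in central HSCs. Trim28, the co-repressor that ZFP57 recruits, gave -0.63 ± 0.30 between the genotypes in central HSCs (edgeR, adjusted p = 0.583). Ctcf and Uhrf1 had the other smallest p of the list, all over 0.05.

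Of 13 genes of IGF signalling, 5 or 6 passed the filter and 0 were called. Igf1, the ligand related to Igf2, had 2, 0, 2 and 31 counts in endosteal WT A to D and 570, 534, 462 and 86 in endosteal libraries labelled Gfra2-/-, with 27, 1, 18 and 8 counts in central WT and 503, 504 and 217 in central libraries labelled Gfra2-/-. Its endosteal levels were higher in libraries labelled Gfra2-/- than in WT (log2 fold change 5.27 ± 1.48 SE, edgeR adjusted p = 0.645) and, in WT, lower in endosteal than in central HSCs (-3.96 ± 1.64, adjusted p = 0.587). Igf1 passed the filter mainly through libraries labelled Gfra2-/- in the former test and mainly through central libraries in the latter. In central HSCs the change between the genotypes was 1.49 ± 1.23 (edgeR, adjusted p = 0.803), and the interaction had an adjusted p of 0.713. Igfbp4, which binds IGFs, was lower in endosteal libraries labelled Gfra2-/- (-0.81 ± 0.29, edgeR adjusted p = 0.737), while Shc1 and Insr had the smallest p, both over 0.05, between the compartments in that genotype. The receptor Igf1r did not pass in any comparison, with -0.46 ± 0.73 in WT and -0.26 ± 0.60 in libraries labelled Gfra2-/- between the compartments.

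Of 6 genes of fetal stem cells, 2 to 4 passed the filter and 0 were called. Igf2bp2, which binds Igf2 mRNA among others, was lower in endosteal than central HSCs labelled Gfra2-/- (log2 fold change -1.86 ± 0.50 SE, edgeR adjusted p = 0.896) and over both genotypes (-1.98 ± 0.58, adjusted p = 0.289). Igf2bp3 was higher in central libraries labelled Gfra2-/- than in WT (4.83 ± 1.40, edgeR adjusted p = 0.321), with 128, 67 and 46 counts against 0, 1, 0 and 1. It passed the filter there only through libraries labelled Gfra2-/-, in which it was high. Hmga2 had the next smallest p in most comparisons, each over 0.05. Lin28b, the fetal regulator, was found in 4 libraries, with at most 62 counts.

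Other genes overlap the members, and reads were counted without regard to strand, so reads of overlapping genes cannot be told apart and those shared by 2 genes were left out by the counting. Copg2 covers 912 bases (23.1%) of the exons of Mest on the opposite strand, and Gm26906 covers 1228 bases (6.8%) of those of Meg3. Gm27483 and Gm27786 overlap H19 on the opposite strand, over 71 and 70 bases, beside Mir675 on the same strand. Smaller overlaps were those of Igf2os with Igf2 (98 bases), Gm27741 with Plagl1 (38 bases), and Gm27300, Mir1906-1 and Mir770 with Meg3. Gm49394 shares 3596 bases with Igf2 in the annotation used here and is not among the counted genes. The exons of Airn do not overlap those of Igf2r.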

How the data were processed

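The authors aligned single-end reads of 50 bp to GRCm38 (Ensembl release 81) with GSNAP (version 2015-09-29 per the submitters' processing notes), and counted reads per gene with htseq-count (HTSeq 0.5.3p3) without regard to strand. The deposited values are raw counts, with 1 line for each of 46078 genes and 92 spike-ins and 5 lines of reads on no gene or not placed. The labels describe 16 samples, and 15 columns were tied to a group by the study's own lists of libraries. The remaining 1 column of per-sample values was not used. Reads on no gene were 10.6% to 29.9% and ambiguous reads 4.08% to 9.25% of each library, and both stayed out of library sizes.

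Counts were tested with edgeR 4.0.16 (R 4.3.3; filterByExpr, TMM, quasi-likelihood test, Benjamini-Hochberg, FDR 0.1), on the 2 groups compared or on all 15 libraries. The alternatives were DESeq2 1.42.0, DESeq2 or spike-in size factors, other filters on low counts (none, or 10 counts in every library), thinned counts, a stricter FDR (0.05), a shared fit of the 4 groups, a depth minimum of 1500000 reads, the spike-in batch as a term or left out, without the 2 endosteal libraries whose Gfra2 counts go against the label, and each library left out. The compartment test over both genotypes and the fit without the 3 libraries highest in markers of other cells were added after seeing the data, as were the ratios of H19 with each library left out. The procedure was tested on simulated data: of genes changed by 3 log2 units, 42.2%, 23.2%, 30% and 42.6% were recovered in the 4 comparisons of 2 groups (11181, 13860, 11772 and 12970 genes). For genes changed by 1 log2 unit it was at most 2.83%.

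CPM are counts per 1000000 of the TMM-scaled total over 15 libraries, and RPKM divide these by merged exon length in GENCODE M21 (Ensembl release 96, GRCm38), which names 45143 genes of the table. Permutation tests were exact and two-sided (Python 3.11.15, scipy 1.17.1). The members and lists were chosen with earlier results of these data known. All members are named in every comparison. Of each list, the genes Cdkn1c, Sgce, Gnas, Gatm, Dcn, Igf1r, Lin28b, Trim28 and Dnmt1 and the 2 smallest p per comparison are named, and per member the 2 genes most like it. Values of Rian, Zdbf2, Zfp57 and Igf1 per library, of the markers Kdr, Emcn, Plvap, Stab2, Pdgfrb and Col1a1, and Peg13 and Trappc9 over both genotypes, were added after their values were seen. Promoters and microRNAs came from RefSeq.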

Additional observations from a re-analysis of the deposited data

Results flagged for a closer look

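Within a group of 4 libraries, 1 library stood far from the other 3 in 8 of 30 groups of a gene and condition examined. Most of the 8 were genes at or near 0 in the other libraries. Where the other 3 libraries are at 0, any count stands out, so the 8 cannot be set against a rate given by chance. Plagl1 reached 24.87 CPM in endosteal WT D (304 counts), with at most 0.133 CPM in the other 3 libraries of the group, and Peg3 reached 10.15 CPM in endosteal Gfra2-/- A (150 counts), with at most 0.175 CPM in the others. Igf2 was at 4.173 CPM in endosteal WT D (51 counts) and at 2.3 CPM in endosteal Gfra2-/- A (34 counts), against 0 in the other 3 libraries of each group. The remaining values rest on 1 or 2 counts: H19 at 0.2437 CPM in endosteal WT A, Peg3 at 1.811 CPM in central WT A, Mest at 2.682 CPM in central WT C and Plagl1 at 0.06765 CPM in endosteal Gfra2-/- A.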

How the results depend on the processing

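No paired analysis was possible because the columns of the count table could be tied to groups but not to the replicate numbers of the labels. Of 251 alternatives to 22 fold changes of members, 238 kept direction and side of the threshold, 10 reversed and 3 came to pass it (Meg3 with DESeq2 in WT and over both genotypes, and with no filter over both genotypes, adjusted p = 0.00656, 0.0017 and 0.0841). The cause of each change below was not tested.

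In WT, genes called between compartments went from 0 to 607 with DESeq2, 58 with no filter, 11 with 10 counts in every library, 5 with thinned counts, 22 with all groups in one fit, 1 with the spike-in batch as a term and 1 without the 3 libraries highest in markers of other cells, and members from 0 to 2 with DESeq2 and 1 with no filter. In libraries labelled Gfra2-/- the genes went from 0 to 395 with DESeq2 and 15 with spike-in factors, and the members from 0 to 1 with each. Between genotypes in central HSCs, 6 genes became 730 with DESeq2, 2 with spike-in factors, 134 with no filter, 29 with 10 counts in every library, 20 with thinned counts, 1 without low spike-in libraries, and 0 at an FDR of 0.05, with at least 1500000 reads or without the 3 libraries. In endosteal HSCs 0 became 531 with DESeq2, 6 with spike-in factors and 1 with all groups in one fit. The interaction went from 0 to 240 with DESeq2 and 193 with spike-in factors.

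Over the 4 groups, 91 genes became 1498 with DESeq2, 152 with its size factors, 474 with spike-in factors, 272 with no filter, 243 with 10 counts in every library, 153 with thinned counts, 51 at an FDR of 0.05, 13 with at least 1500000 reads, 4 without low spike-in libraries, 21 without the libraries against their label and 10 without the 3 libraries. Over both genotypes, 4 genes became 534, 13, 33, 30, 22, 14, 2, 2, 0, 0 and 0 under the same settings in the same order. Members called, 1 in each, became 3 and 2 with DESeq2 and 2 and 2 with no filter. They became 0 in each with 10 counts in every library, which H19 cannot reach, and without the low spike-in libraries, those against their label or the 3 libraries, and over the 4 groups also with thinned counts and at an FDR of 0.05. Over 27 fits the adjusted p of H19 was 8.07e-07 to 0.37 over the 4 groups (17 calls) and 1.41e-12 to 0.437 over both genotypes (23 calls).

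With spike-in factors Grb10, Ndn and Igf2r turned to 0.52, 1.06 and 1.16 between compartments in WT, Grb10 to 1.19 between genotypes in central HSCs, and Meg3 to -0.11 in endosteal HSCs, where the batch term gave -0.10. Ndn turned to -0.61 in central HSCs with at least 1500000 reads, and Igf2r in endosteal HSCs to 0.031 without low spike-in libraries, 0.26 without those against their label and 0.13 without the 3 libraries.

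Leaving out 1 library at a time gave 0 to 6 genes in WT, 0 to 8 between genotypes in central HSCs, 26 to 113 over the 4 groups and 0 to 20 over both genotypes, and 0 to 1 members in the last 2. Fold changes ranged from -0.59 to 0.47 (Ndn) and -0.75 to 0.071 (Igf2r) between compartments in WT, from -0.23 to 0.83 (Ndn) between genotypes in central HSCs, and from -1.10 to 0.81 (Meg3) and -0.67 to 0.23 (Igf2r) between genotypes in endosteal HSCs. Depth limits the central WT group most, and where it allows up to 3.63 counts per 1000000 a low level cannot be told from 0.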
